A study of Sus scrofa with 16 samples.

Results

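The genes described here are 10 classical interferon-induced antiviral genes, MX1, MX2, IFIT1, IFIT2, RSAD2, IFI44, IFI44L, IFI6, ISG15 and OAS2, among the 25880 genes counted in pig pituitaries. They were selected on earlier results of these pigs, in which IFI6 stood out in a single LFC pig, so their levels and their differences between the groups are a description and carry no test. All 10 were found by the gene symbols deposited with the data, and all 10 passed the filter on low counts that left 13621 genes.

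Whole pituitaries of 16 female Złotnicka White pigs, a native Polish breed, were sequenced. The labels give 8 pigs a low feed conversion ratio (LFC) and 8 a high one (HFC), feed conversion being the feed used per unit of body weight gained. The pigs were unrelated, came from different farms and were kept under 1 housing and feeding regime. All are labelled day 180 and were slaughtered at about 100 kg, and each pig is 1 animal and 1 library. For this breed the study gives the HFC pigs more days in test, a lower daily gain and less meat in the carcass. The common day label therefore does not show equal age, and age and growth cannot be told apart from feed conversion group. No infection, vaccination or interferon treatment is given for any of the pigs.

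Type I interferons are cytokines that cells release when they sense viral nucleic acids. They bind a receptor on the same or on neighbouring cells and, through the kinases JAK1 and TYK2 and a complex that holds IRF9, switch on interferon-stimulated genes. The products of those genes block virus entry, replication or translation, tag proteins or present antigen to T cells, and most of the genes keep a low level in tissue without infection.

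Between 6010629 and 11794256 counts per pig fell on genes. Levels are given as CPM, the counts of a gene relative to the library size after TMM scaling, which adjusts library sizes to a common composition. The exonic lengths of the genes were not used here, so levels were compared between pigs and not between genes. The hormone genes of the anterior lobe (PRL, GH1, POMC, CGA) define the labelled tissue and had between 8587 and 112503 CPM in every pig. The summed level of the posterior lobe and myelin markers ran from 125 to 6023 CPM, with 258 CPM in LFC replicate 4. In whole glands more cells of a type and more RNA per cell cannot be told apart.

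IFI6 (ENSSSCG00000034570, chromosome 6, 84852773 to 84857979 on Sscrofa11.1) encodes a small membrane protein that protects infected cells from death and limits virus replication compartments. It had 57.5 to 2156 CPM in the LFC pigs with a median of 106, and 62.6 to 145 CPM in the HFC pigs with a median of 97.6. The highest value came from LFC replicate 4, in which 14164 reads were counted on this gene, and the next pig, LFC replicate 5, had 151 CPM. That pig was therefore 22.1 times the median of the 16 pigs and 14.2 times the next pig, and the other 7 LFC pigs, at 57.5 to 151 CPM, spanned the whole range of the HFC pigs. Among the 13621 genes this was the largest ratio of that pig to the median of all pigs.

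ISG15 (ENSSSCG00000040575, chromosome 6, 63362889 to 63365398), a ubiquitin-like protein that is attached to other proteins, had the same 2 highest pigs with a smaller gap. It had 14.5 to 136 CPM in the LFC pigs, median 23.1, and 6.41 to 34.0 CPM in the HFC pigs, median 17.5. LFC replicate 4 was again the highest, 6.68 times the median of all pigs and 3.04 times the next pig, which ranked its ratio 3 among all genes tested. LFC replicates 5 and 6 followed with 44.8 and 37.2 CPM, above every HFC pig, while HFC replicate 8 had the lowest level. The deposited span of ISG15 overlaps a neighbouring RefSeq gene, LOC110261384, and the libraries did not keep the strand, so reads of the 2 genes may not be separated.

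RSAD2 (ENSSSCG00000008648, chromosome 3, 128880859 to 128898072) encodes viperin, an enzyme that makes a nucleotide which stops viral RNA chains. Its level was 4.61 to 23.6 CPM in the LFC pigs, median 8.76, and 2.35 to 18.0 CPM in the HFC pigs, median 5.81. Here 2 pigs of different groups stood above the others, LFC replicate 4 at 3.41 times and HFC replicate 3 at 2.60 times the median of the 16 pigs. HFC replicate 8 was the lowest at 0.34 of that median, with 26 reads counted.

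The IFI44 pair are interferon-induced proteins whose activity is less well defined. IFI44 (ENSSSCG00000003763, chromosome 6, 134633961 to 134650811) had 22.1 to 68.0 CPM in the LFC pigs, median 30.5, and 14.2 to 33.5 CPM in the HFC pigs, median 21.0. LFC replicate 4 was 2.03 times the next pig, and HFC replicate 3 at 33.5 CPM was the only HFC pig above the LFC median. IFI44L (ENSSSCG00000027660, chromosome 6, 134100934 to 134680050) had 38.9 to 80.7 CPM in the LFC pigs, median 56.3, and 26.5 to 65.5 CPM in the HFC pigs, median 45.6. Its highest pigs were the same, LFC replicate 4 and then HFC replicate 3, but the gap between them was only 1.23 times. The deposited model of IFI44L spans 579117 bases and contains the whole of IFI44 and of ADGRL4, an endothelial receptor gene, so the counts of IFI44 and IFI44L may not be independent of each other.

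IFIT1 and IFIT2 encode RNA-binding proteins with tetratricopeptide repeats that hold back the translation of foreign RNA. IFIT1 (ENSSSCG00000010452, chromosome 14, 101213979 to 101251108) had 26.0 to 79.5 CPM in the LFC pigs, median 36.4, and 20.0 to 38.3 CPM in the HFC pigs, median 32.2. LFC replicate 4 was 1.58 times the next pig, and LFC replicates 3, 5 and 6, at 42.5 to 50.4 CPM, also lay above every HFC pig. IFIT2 (ENSSSCG00000010451, chromosome 14, 101193078 to 101206684) had 8.59 to 19.9 CPM in the LFC pigs, median 12.4, and 7.47 to 18.9 CPM in the HFC pigs, median 10.2. LFC replicate 4 and HFC replicate 3 differed by only 1.05 times here and stood together above the other pigs. The deposited span of IFIT1 holds the whole RefSeq gene IFIT3, so its counts may include reads of that relative, and the RefSeq span of LIPA, which encodes a lysosomal lipase, covers both IFIT genes.

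The myxovirus resistance genes MX1 and MX2 encode dynamin-like GTPases that act against viruses, and lie 15585 bases apart. MX1 (ENSSSCG00000012077, chromosome 13, 204847561 to 204868477), a widely used marker of an interferon response, had 82.0 to 126 CPM in the LFC pigs, median 118, and 74.6 to 159 CPM in the HFC pigs, median 109. MX2 (ENSSSCG00000012076, chromosome 13, 204798302 to 204831975) had 15.9 to 33.3 CPM in the LFC pigs, median 23.1, and 11.5 to 37.0 CPM in the HFC pigs, median 17.5. For both genes the highest pig was HFC replicate 3 and the lowest HFC replicate 5, and LFC replicate 4 came second. That pig was only 1.15 times the median of all pigs for MX1 and 1.60 times for MX2.

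OAS2 (ENSSSCG00000009881, chromosome 14, 38827673 to 38860820) encodes an oligoadenylate synthetase, an enzyme activated by double-stranded RNA. It had 24.3 to 70.4 CPM in the LFC pigs, median 50.3, and 27.1 to 107 CPM in the HFC pigs, median 48.1. Its highest pig, HFC replicate 4, had 2.15 times the median of the 16 pigs, and LFC replicate 4 was near that median at 1.03 times. The deposited span shares 59.6% of the RefSeq gene OAS1, so reads of that paralog may be included.

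**Figure D1:**
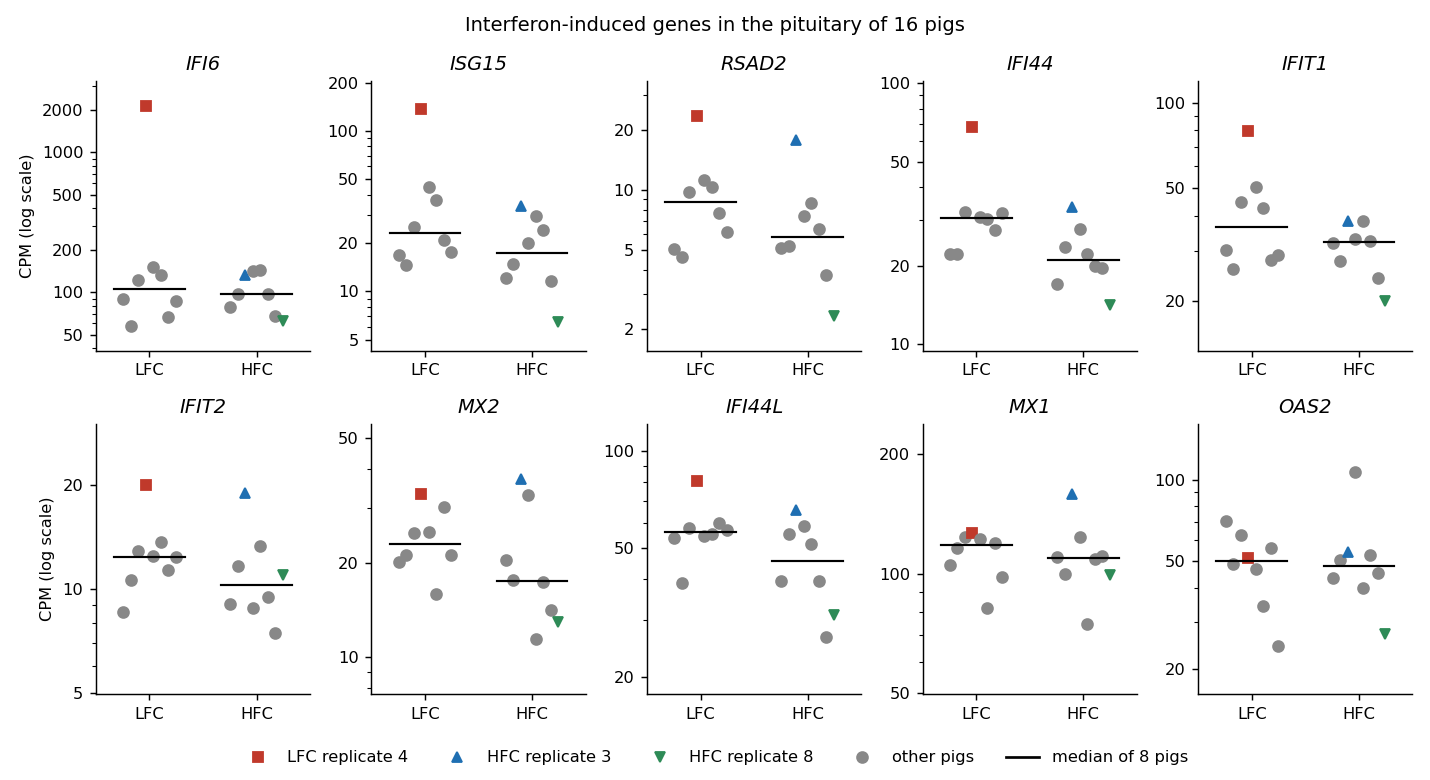
Level in CPM on a log scale (vertical axis) of each of the 10 genes in the 8 LFC and 8 HFC pigs (horizontal axis); each point is 1 pig and the line is the median of the group. LFC replicate 4, the red square, is the highest pig for 7 genes and lies at 1.15 and 1.03 times the median of the 16 pigs for MX1 and OAS2. The points of the 2 groups overlap in each panel.

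Read across pigs, LFC replicate 4 was the highest of the 16 pigs for 7 of the 10 genes, HFC replicate 3 for MX1 and MX2, and HFC replicate 4 for OAS2. Over all genes tested LFC replicate 4 was the highest pig for 12.1%. It had at least 2 times the median of all pigs for 5 of the 10 genes (IFI6, ISG15, RSAD2, IFI44 and IFIT1) and for 3% of all genes tested. The earlier results that chose the genes used this pig, so nothing is read from these shares.

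Other pigs stood consistently above or below the rest as well. LFC replicates 3 and 4 and HFC replicate 3 were above the median of the 16 pigs for all 10 genes, at a median ratio over the genes of 1.25, 2.10 and 1.40. HFC replicates 1 and 8 were above it for 0 of 10, with median ratios of 0.797 and 0.594. HFC replicate 8 had the lowest level of IFIT1, RSAD2, IFI44 and ISG15. The spread was thus present within the HFC group too, where ISG15 and RSAD2 differed most between replicates 3 and 8.

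**Figure D2:**
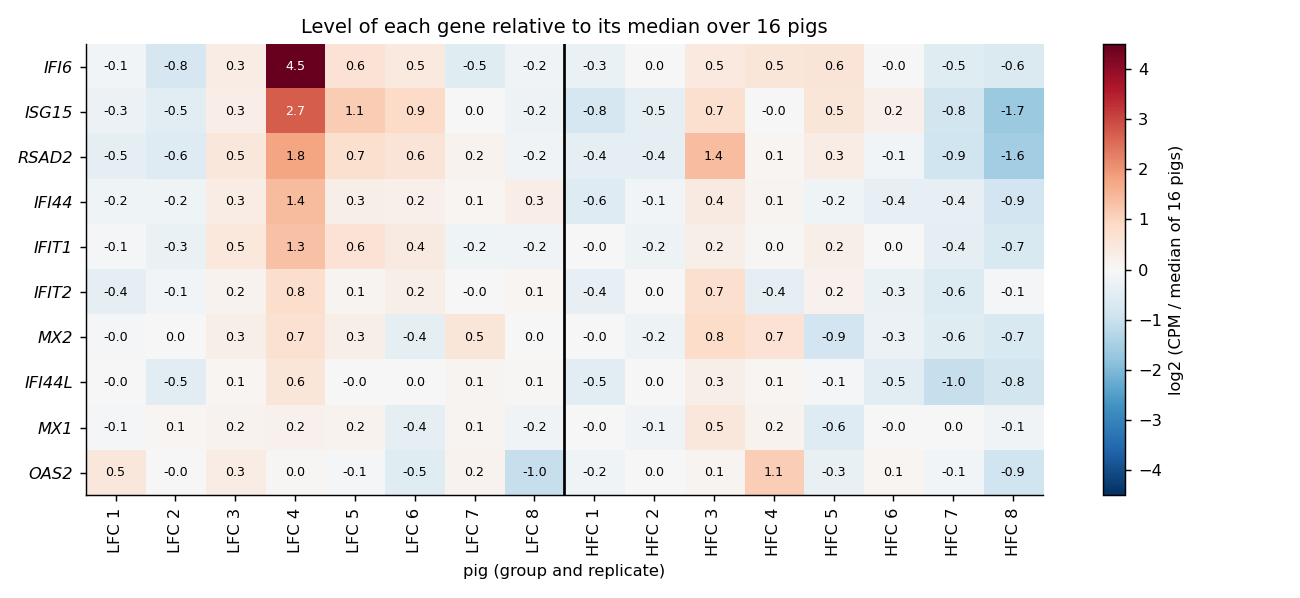
Log2 of the CPM of each gene (rows) over its median in the 16 pigs, for each pig (columns); red is above and blue below the median and the vertical line separates the groups. LFC replicate 4 reaches 4.5 for IFI6 and 2.7 for ISG15, whereas HFC replicate 3 is above the median and HFC replicate 8 below it in every row.

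Among the 8 HFC pigs, which do not include LFC replicate 4, the expression of MX1 was compared with the 9 other genes on log2(CPM + 1), with exact two-sided permutation tests and Benjamini-Hochberg adjustment over the 9. MX2 followed MX1 most closely, with Pearson's r of 0.87 (exact permutation p = 0.000893, adjusted 0.00804) and Spearman's rho of 0.83 (exact permutation p = 0.0154, adjusted 0.138). Without HFC replicates 3 and 5, which were farthest from the median of MX1, r was 0.80. OAS2 came next with a rho of 0.76 (exact permutation p = 0.0368, adjusted 0.165) and an r of 0.46 (exact permutation p = 0.248, adjusted 0.558), which was 0.83 without the same 2 pigs.

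For the other 7 genes rho with MX1 ran from -0.29 for IFIT2 to 0.48 for IFI44, and the median over all 9 was 0.29. Leaving out HFC replicates 3 and 5 moved r with MX1 from 0.10 to 0.64 for IFI6, from 0.16 to 0.64 for IFIT1, from 0.19 to 0.56 for ISG15, from 0.45 to 0.66 for RSAD2 and from 0.22 to -0.70 for IFIT2, so these values rest on the pigs included. The rank relation with MX1 therefore did not pass the threshold after adjustment for any gene, and that by Pearson's r did for MX2 alone. A rho of at least 0.7 with MX1 was reached by 2 of 9 genes in the HFC pigs, against 5.13% of all genes tested, and by 1 of 9 (MX2) in the LFC pigs without replicate 4, against 4.29%. The median rho was 0.68 when HFC replicate 5, the pig with the fewest counts, was left out and 0 without HFC replicate 3.

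Closer rank relations were found among IFI6, ISG15, RSAD2 and IFIT1, also in pigs other than LFC replicate 4. Over the 8 HFC pigs rho was 0.98 between RSAD2 and ISG15, 0.95 between IFIT1 and RSAD2, 0.90 between IFI6 and RSAD2 and 0.93 between IFIT1 and ISG15. Over the 7 LFC pigs without replicate 4 the same pairs had a rho of 1.00, 0.82, 0.86 and 0.82. IFI44 had a rho of 0.69 to 0.86 with these 4 genes in the HFC pigs and of 0.43 to 0.57 in the 7 LFC pigs. OAS2 had a rho of -0.10 with IFIT2 and of 0.40 to 0.79 with the other 8 genes in the HFC pigs, and of -0.46 with IFIT2 to 0.50 with MX1 in the 7 LFC pigs. Over all 45 pairs the median rho was 0.60 in the HFC pigs, with 42 pairs above 0, and 0.36 in the LFC pigs without replicate 4, with 36 above 0. These pairs were chosen after their values were seen, share their libraries and sequencing depth, and are given without a test.

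The other genes of the pathway were taken from 7 lists of 120 symbols, of which 96 were found in the count table and 84 were tested. Transcripts of the interferons themselves were at the limit of detection. IFNB1, the first interferon gene that most cells induce, had 1 read in all 16 pigs together, in LFC replicate 7. IFNG, the product of T and NK cells, had 9 reads, 3 of them in LFC replicate 4, IFNE had 12 and IFNK had 0. A count of 0 allows up to 3 reads, which is 0.271 to 0.564 CPM depending on the library, and covers counting error only. IFNA1, IFNW1 and the lambda interferons were not analysed here.

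Among the sensors and the factors that act just after them, IRF7, which amplifies interferon transcription, had 27.4 CPM in LFC replicate 4, 2.37 times the median of the 16 pigs. ZBP1 and DHX58, sensors that are interferon-induced themselves, were at 2.28 and 2.07 times. The adaptor MAVS was at 0.663 times and the kinase TBK1 at 1.03 times. The median over the 12 tested genes of that list was 1.25, against 0.992 over all genes tested. HFC replicate 3 was nearly as high for IRF7, with 27.0 CPM or 2.34 times the median of the 16 pigs, and for DHX58, at 1.95 times. It was the highest pig for the sensor RIGI, at 1.57 times, where LFC replicate 4 was second at 1.27 times. Other genes of the list were not raised as much in HFC replicate 3. ZBP1 had 1.74 CPM there against a median of 1.54 CPM, and STING1 4.14 CPM against 6.56 CPM.

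The receptor and signalling genes lay on both sides of the median in LFC replicate 4. The kinase JAK1 was at 0.596 times the median of the 16 pigs, TYK2 at 0.873 and the receptor subunit IFNAR1 at 1.09 times. IRF9, the DNA-binding part of the complex, was higher at 2.13 times. The median over the 11 genes of this list was 1.00.

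The list of genes that attach or remove ISG15 or restrain the response had a median of 1.5 times in LFC replicate 4 over 9 genes, and 8 of them were above 1. USP18, which removes ISG15 and blocks the receptor, was at 2.85 times, UBE2L6, the conjugating enzyme of ISG15, at 2.75 times and SOCS1, an inhibitor of the JAK kinases, at 2.23 times. HERC5 and HERC6, ligases for ISG15 and ubiquitin, were at 1.5 and 1.51 times, and PIAS1, an inhibitor of signalling, was at 0.932 times. For 7 of these 9 genes it was the highest pig.

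In the list of other induced antiviral genes, BST2 (tetherin, which holds budding virus at the cell surface) had 94.2 CPM in LFC replicate 4, 5.80 times the median of the 16 pigs. It was the only one of the 84 genes in which any pig reached 4 times that median, against 1.4% of all genes tested. The RNA helicase DDX60 and IFITM3, which blocks the entry of enveloped viruses, were at 2.88 and 2.75 times. The capping enzyme CMTR1 and the RNA-editing enzyme ADAR were at 0.607 and 0.720 times, so this list of 31 genes, with a median of 1.33 times, also held genes that were low in that pig.

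Class I antigen presentation had the highest median of the pathway lists, 1.61 times over 12 genes. B2M, the light chain of class I molecules, had 4904 CPM in LFC replicate 4, 3.56 times the median of the 16 pigs, and the heavy chain gene SLA-1 was at 2.15 times. The immunoproteasome subunit PSMB8 was at 2.23 times, while the peptidase ERAP1 was at 0.332 times, the lowest ratio of all 84 genes. The targets that respond mostly to interferon gamma were closer to the median, with 1.11 times over 9 genes. They ran from CXCL9 at 0.966 to CD274 at 1.59 times, with CIITA at 1.04, GBP1 at 1.11 and GBP2 at 1.47 times between.

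LFC replicate 4 was the highest pig for 38 of the 84 pathway genes (45.2%) and had at least 2 times the median for 14 of them (16.7%), against the 12.1% and 3% of all genes tested given above. These lists were compiled with earlier results of the pigs known, and the 2 shares are a description of that pig.

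**Figure D3:**
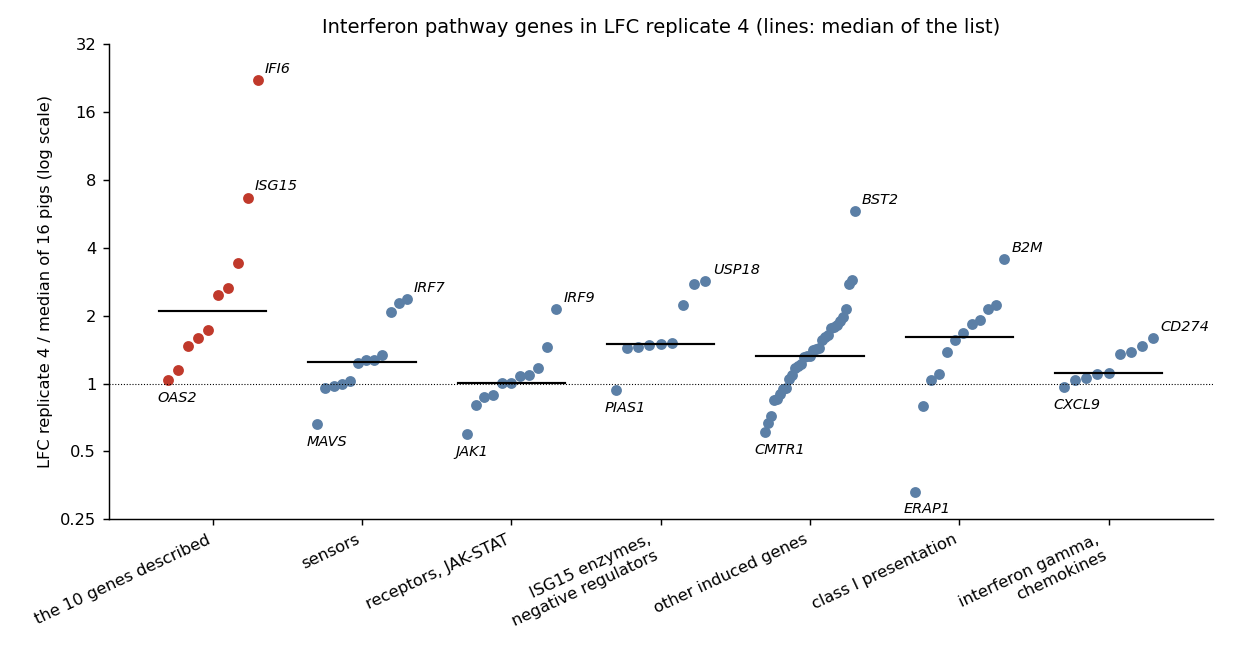
Ratio of the level in LFC replicate 4 to the median of the 16 pigs (vertical axis, log scale) for the 10 genes described (red) and the 84 tested genes of 6 interferon pathway lists (blue), with a line at the median of each list. IFI6 is at 22.1 and BST2 at 5.80, whereas the receptor and JAK-STAT list has its median at 1.00.

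Several other measures moved with LFC replicate 4. Its summed level of red blood cell markers was 1435 CPM, the highest of the 16 pigs with a median of 320 CPM, nearly all of it from HBB, a haemoglobin chain. The pig with the next highest sum, HFC replicate 5 at 1052 CPM, had 145 CPM of IFI6 and 29.7 CPM of ISG15. The macrophage markers summed to 337 CPM in LFC replicate 4, rank 4 of 16 with MARCO at 0, and ran from 231 to 376 CPM in the LFC and from 127 to 451 CPM in the HFC pigs. The T and NK cell markers summed to 18.3 CPM, rank 3, with CD4 at 0. Of 6 markers of plasmacytoid dendritic cells, the strongest interferon producers, 3 were found. These summed to 49.3 CPM, rank 5, of which TCF4 gave 38.7, IRF8 10.3 and SPIB 0.304 CPM, so the sum mostly follows 1 gene. HFC replicate 8, low for most of the 10 genes, had the lowest sums of macrophage markers (127 CPM) and of T and NK cell markers (7.04 CPM). HFC replicate 3, above the median for all 10 genes, had low sums as well. They were 158 CPM of macrophage markers against a median of 267 CPM, and 8.06 CPM of T and NK cell markers against 15.3 CPM. Its sum of plasmacytoid dendritic cell markers was 38.1 CPM, the lowest and level with HFC replicate 8, with 34.2 CPM of it from TCF4. Hormone genes moved with LFC replicate 4 too, since CGA was at 2.58, TSHB at 3.87 and FSHB at 2.74 times the median, the highest of the 16 pigs for CGA and the second for the other two, while PRL and GH1 were at 0.784 and 0.816 times. Beyond these values, the part of blood, immune or hormone cells in the result was not tested.

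Short genes were also read more in LFC replicate 4. A span in the genome was known for 10890 tested genes, and over these the deviation of that pig from the median had a Spearman's rho of -0.34 with the span, a description across genes that share 1 library. LFC replicate 6 had a rho of -0.36 and HFC replicate 5 of -0.29. They had 133 and 145 CPM of IFI6, against a median of 97.6 CPM over the 16 pigs. Their levels of ISG15 were 37.2 and 29.7 CPM, against a median of 20.4 CPM. LFC replicate 5, with a rho of -0.21, had 151 CPM of IFI6 and 44.8 CPM of ISG15. HFC replicate 3, with a rho of 0.20, had 134 and 34.0 CPM. The median ratio of LFC replicate 4 was 1.16 in the shortest 25% of spans, up to 12555 bases, and it was the highest pig for 22.8% of those genes. IFI6 and ISG15 fall in that class, IFI44L in the longest and the other 7 between, where RSAD2, IFI44 and IFIT1 had ratios of 3.41, 2.66 and 2.46. These classes rest on deposited spans, which for IFI44L and IFIT1 also hold other genes. The RefSeq genes of these 2 names cover 18983 and 12084 bases. By those spans IFI44L would lie between the classes and IFIT1 in the shortest, as would IFIT2 with 10872 bases. Of the 27 pathway genes in the shortest 25% LFC replicate 4 was the highest pig for 59.3%, beside the 22.8% of all genes there. Of the 53 with longer spans it was the highest pig for 35.8%. Among all genes in the longest 25% of spans it was the highest for 6.43%. The share over all genes with longer spans is not given here, so nothing is read from these counts. The part of RNA or library quality in the result was not tested.

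**Figure D4:**
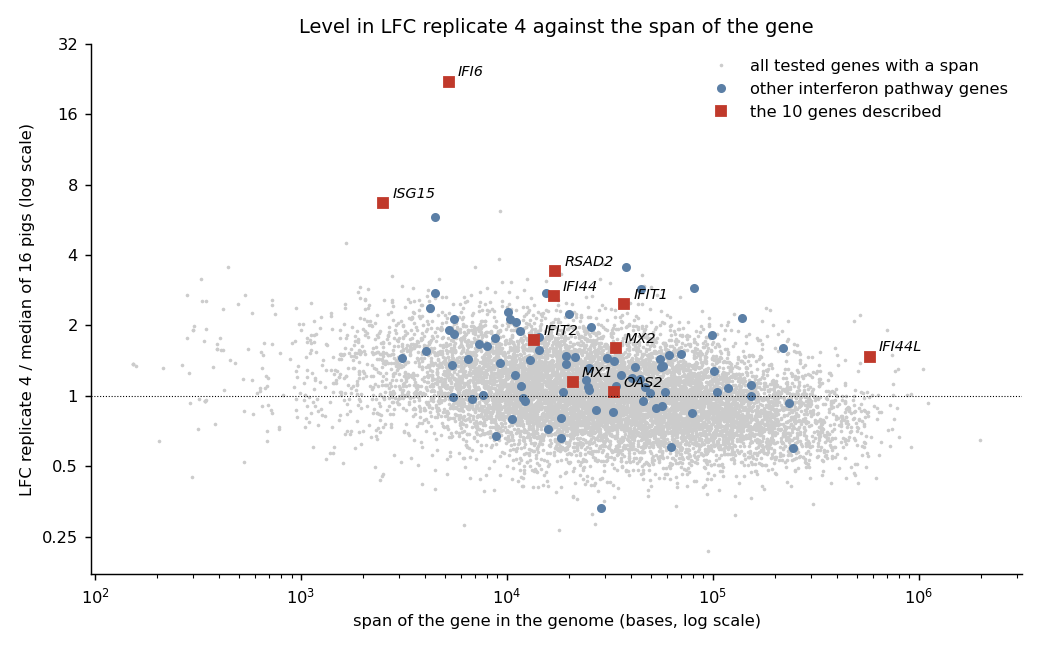
Ratio of LFC replicate 4 to the median of the 16 pigs (vertical axis, log scale) against the span of each gene in the genome (horizontal axis, bases, log scale), for all tested genes with a span (grey), interferon pathway genes (blue) and the 10 genes described (red). IFI6 and ISG15 lie on the short side at 22.1 and 6.68 times. By deposited span RSAD2, IFI44 and IFIT1, at 3.41, 2.66 and 2.46 times, lie in the middle of the range.

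Between the feed conversion groups, 9 of the 10 genes had a higher fitted level in the LFC pigs, all but OAS2, with a median log2 fold change (HFC over LFC) of -0.37 against -0.01 over all genes tested. With scaling by total library size it was 8 of 10, since MX1 also changed sides. Without LFC replicate 4 it was 7 of 10 with a median of -0.13, and MX1, IFI6 and OAS2 were on the HFC side. The levels of the 2 groups overlapped for all 10 genes. The share of all genes tested that overlap is not given here, so nothing is read from that count.

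IFI6 had the lowest log2 fold change of the 10, -1.79 with a standard error of 0.69, and it was 0.04 with a standard error of 0.23 without LFC replicate 4. ISG15 had -1.03 with a standard error of 0.44, and -0.40 with 0.32 without that pig. IFI44 had -0.57 with a standard error of 0.21 and was the gene with the largest remaining difference apart from ISG15, -0.32 with 0.16. RSAD2, IFIT1 and IFI44L had -0.45, -0.42 and -0.32 with all pigs and -0.14, -0.21 and -0.22 without LFC replicate 4. IFIT2 and MX2 had -0.18 and -0.22, and MX1 and OAS2, at -0.01 and 0.09, were nearly level between the groups.

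A gene was called where its adjusted p did not exceed 0.05 and its fold change was 1.3 or more. By the quasi-likelihood test of edgeR (Benjamini-Hochberg), 0 of the 10 genes and 0% of the 13621 genes tested were called between the groups. The alternative tool, DESeq2, called 29 genes, with 0 of the 10 among them. The study, which used DESeq2 with the same limits, reports many more genes for this breed. The cause of that difference was not tested. By edgeR with the p left unadjusted and the other limits kept, IFI6, ISG15 and IFI44 were past the threshold, all higher in the LFC pigs. Over all genes 776, or 5.7%, were past it in either direction, and 1.7% were past it and higher in the LFC pigs. Without LFC replicate 4 it was 0 of the 10 against 4.07% of all genes. The same contrast chose the genes, so nothing is read from these counts.

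Of the 84 other pathway genes 0 were called by edgeR or by DESeq2, and their smallest adjusted p was 0.413 (edgeR, Benjamini-Hochberg). By the unadjusted p and the fold change there were 2, beside the 5.7% of all genes. They were BST2, with a log2 fold change of -1.05 and a standard error of 0.38, and NMI, itself interferon-induced, with -0.48 and 0.20. Neither reached that threshold without LFC replicate 4. In all, 58 of the 84 had a higher fitted level in the LFC pigs, with a median log2 fold change of -0.10, against 7092 of the 13621 genes tested and a median of -0.01.

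**Figure D5:**
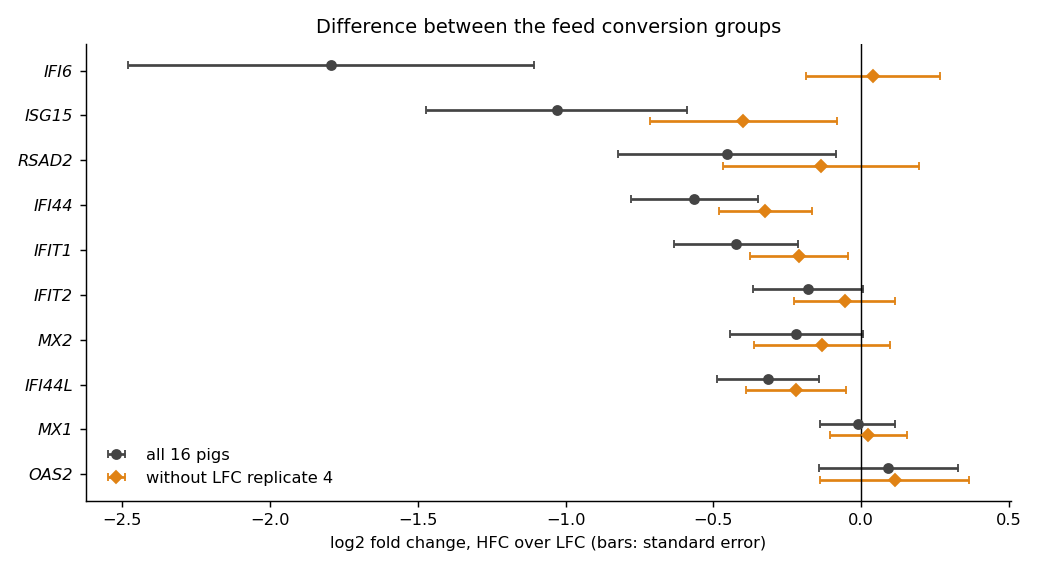
Log2 fold change of the 10 genes between the groups, HFC over LFC (horizontal axis), with all 16 pigs (grey circles) and without LFC replicate 4 (orange diamonds); bars are standard errors. IFI6 moves from -1.79 to 0.04 and ISG15 from -1.03 to -0.40, whereas MX1 and OAS2 lie near 0 in both.

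The genes whose level was most like the mean log2(CPM + 1) of the 10 genes over the 16 pigs were CMPK2 (Pearson's r 0.90), DDX60 (0.90), IRF9 (0.89), ISG12(A) (0.87) and FBXO39 (0.87). After them came LOC100626247, BST2, HERC6, PLAC8 and the unnamed ENSSSCG00000014565, down to an r of 0.82. Of these 10, 5 stood on the interferon lists by symbol. ISG12(A) was not counted among them, although it belongs to the family of the list gene IFI27, since no table used here pairs the 2 names. CMPK2, a mitochondrial nucleotide kinase, lies 5517 bases from RSAD2 on chromosome 3 in the deposited annotation. ISG12(A), of the protein family to which IFI6 belongs, had 836 CPM in LFC replicate 4, 6.19 times the median of the 16 pigs and the fifth ratio of that pig among all genes.

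Within the 8 HFC pigs alone the genes most like the mean, by Spearman's rho, were CMPK2 and FBXO39 (both 0.98) and CXCL10 (0.93), followed by CCDC171, LOC100522887, ZNF624, SUGT1, ABHD1, PSD and TGFBI (0.88 to 0.90), with 2 of the 10 on the interferon lists. With LFC replicate 4 left out of the 16, a choice made after the values were seen, CMPK2 remained the most alike with an r of 0.92, and 6 of the 10 genes were on the lists. These likenesses rest on the same libraries as the 10 genes and are a description without a test.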

How the data were processed

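RNA of whole pituitaries from 16 Złotnicka White gilts was sequenced without strand information. The authors mapped trimmed reads to the Ensembl genes of Sscrofa11.1 with RSEM and STAR and deposited raw counts per gene and pig, whole numbers without normalization for 25880 genes. How whole numbers were obtained from RSEM's estimates is not given in the sources used here. The submitters' processing notes also name CASAVA 1.8.2, FastQC and DESeq2. The deposited comparison of the groups (group means, fold changes and p-values) was used for gene symbols and positions only.

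The 10 genes and all gene lists were chosen with earlier results of these data known. Groups were taken from the labels, where the feed conversion class stands under a tag for shear force. Genes were named by deposited symbols (9550), a reference name table (5875) or position (449, RefSeq on the same assembly, overlap of at least 50% of both spans). In the text all 10 genes are named, with those of the 7 pathway lists past an unadjusted p of 0.05 and a fold change of 1.3, those with a pig at 4 times the median, those that mark a step of the pathway, and the 10 most alike by each measure.

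In R 4.3.3, edgeR 4.0.16 was run with TMM scaling, its expression filter (13621 genes) and quasi-likelihood F tests with Benjamini-Hochberg adjustment, on all 16 pigs without covariates, with a prior count of 2. Standard errors were derived from the F statistic. Python 3.11.15, pandas 2.3.3, numpy 2.4.6 and scipy 1.17.1 gave ratios and correlations, exact over the 40320 orderings of 8 pigs. The alternatives were DESeq2 1.42.0, limma 3.58.1 voom with quality weights, RLE and total library scaling, 2 other filters, robust estimation, no fold minimum, a replicate block, a pseudocount of 0.1 and each pig left out. The tests were tested on simulated data. Total counts were 6010629 to 11794256 per pig, and no libraries were near copies (chi-square per degree of freedom 11.4 to 85.9). The other breed of the study was not analysed here.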

Additional observations from a re-analysis of the deposited data

Results flagged for a closer look

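In each group of 8 pigs the highest and the lowest level of 12 genes, the 10 genes and BST2 and NMI, were compared with the spread of their group, 24 comparisons in all. The rule used flags about 1 in 20 groups by chance where levels are normally distributed. It was applied to CPM without a log transformation, and its rate over all genes is not given here. The 12 genes were chosen with the values of these pigs known, BST2 through a contrast in which LFC replicate 4 was the highest pig, so the 10 flags are a description and are not set against that share. LFC replicate 4 stood above the other LFC pigs for IFI6 (2156 CPM), ISG15 (136 CPM), BST2 (94.2 CPM), IFIT1 (79.5 CPM), IFI44 (68.0 CPM), RSAD2 (23.6 CPM) and IFIT2 (19.9 CPM). The gap was 0.955 of the range of the group for IFI6 and 0.544 to 0.785 of it for the other 6 genes. In the HFC group, replicate 3 stood above the others for RSAD2 (18.0 CPM), replicate 4 for OAS2 (107 CPM) and replicate 5 for NMI (24.4 CPM). Of the 10 flags 7 come from 1 pig.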

How the results depend on the processing

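The number of genes called between the groups was 0 under every alternative run except DESeq2, which called 29, and leaving out each pig gave 0 to 0. The count of pathway genes at an unadjusted p, 2 of 84, was 8 without the fold change minimum, 6 with voom and quality weights and 8 with the replicate block, and 0 to 8 when each pig was left out, the 0 being without LFC replicate 4. The cause was not tested. Same-numbered pigs did not vary together (r of their deviations -0.30 to 0.35, and 0 of 8 LFC pigs matched their own number best), so the numbers do not pair them. The median rho with MX1, 0.29, ran from 0 to 0.68 as each HFC pig was left out and was 0.45 with total library scaling. The log2 fold change of IFI6 was 0.03 in DESeq2, which replaced its outlying count, as for 94 genes in all, -0.31 with voom and quality weights, in which LFC replicate 4 had a weight of 0.505, -0.40 with the replicate block and 0.04 without LFC replicate 4. MX1 changed sides in 9 and OAS2 in 2 of 24 alternatives, and the other 7 genes in none. The ratio of LFC replicate 4 to the median was 18.8 for IFI6 and 5.52 for ISG15 with total library scaling. Levels rest on 6010629 to 11794256 counts per pig, and a count of 0 allows a level of up to 0.271 to 0.564 CPM.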
